A study of Zea mays with 56 samples.

Results

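Abundant new insertions in maize pollen were Mu transposon insertion sites that stood at a relative abundance of at least 0.01, with at least 10 counts, in the pollen of a Mu-active plant. They also had 0 counts in every Mu-inactive leaf library and stayed under 0.01 in every endosperm library and every undiluted leaf and root library. Relative abundance is the count of a site divided by the reference level of its library, the median count over 28 sites that had at least 10 counts in all 50 undiluted libraries. A pollen library entered only with a reference level of at least 1000. The rule found 2322 sites of the 2253850 in the deposited table. Because 12 sites passed in 2 pollen libraries and 1 site in 3, there were 2336 pairs of a site and a plant, and all counts per plant below are of such pairs.

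Mu elements are DNA transposons of maize that move by a cut and paste mechanism under a transposase encoded by the autonomous element MuDR, and each insertion duplicates 9 bp of its target. An insertion made late in development is carried by few cells, and one made early in a lineage is carried by the whole clone that descends from that cell. Pollen is the male gametophyte, whose sperm cells carry a new insertion to the next generation. Endosperm comes from the same double fertilization as the embryo but from a separate fusion, so that it shares inherited insertions with the plant and not insertions made later in it.

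The labels describe W22 inbred maize that is Mu-active or Mu-inactive. Mu-active plants had a Mu-active pollen parent and a Mu-inactive ear parent and grew to maturity, and Mu-inactive plants were of the ear parent's line and were harvested as seedlings. Endosperm was chipped from a kernel, and the plant that grew from the same kernel gave V2 leaf, primary root and mature pollen. DNA was sheared and the genome beside Mu ends was amplified by PCR (MuSeq2). Endosperm and pollen DNA was prepared with a CTAB method, and leaf and root DNA with a kit. The genotype label of 2 of the 17 endosperm libraries, of plants 61 and 74, also names B73 MuKiller. Neither plant is among those whose abundant sites are described, and both endosperms count in the 0.01 limit of the rule. Every abundance comes from DNA pooled over many pollen grains or cells of 1 plant, so that the share of genomes carrying a site and its efficiency in PCR cannot be told apart.

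The pollen of 9 plants met the depth rule. Titles and descriptions put plants 42 and 52 in family ND67 and the other 7 (69, 76, 85, 99, 105, 106 and 107) in family ND58, with 2 conflicts. The description of pollen 69 names ND67 where its title names ND58, and the title of pollen 99 names plant 85 where its description names plant 99. Each of the 9 pollen libraries shared more sites at 0.1 or more with its own endosperm (23 to 64 sites) than with any other plant (12 to 23 sites). Total counts ran from 181502 to 745604 in these pollen libraries, and reference levels from 1478.5 (plant 69) to 7022 (plant 106), so the 0.01 threshold stood at 15 to 71 counts. Their endosperm libraries had reference levels of 767.5 (plant 105) to 29232 (plant 52). Only plant 76 also had a leaf library and only plant 69 a root library. The other 5 pollen plants, with 6 libraries, were under the depth rule.

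The rule separated 2 kinds of site almost without intermediates. In the 9 pollen libraries 2761 pairs had 0 Mu-inactive counts, at least 10 counts and an abundance of 0.01 or more. Of these, 2336 were the abundant new sites and 389 stood at 0.1 or more in another tissue of the same plant. In only 9 the highest level in another tissue of the plant lay between 0.01 and 0.1, and the last 27 were left out because of other plants alone. Sites eligible for the call numbered 415952, of which 0.558% were called, a share that the rule itself fixes. The remaining 413630 sites were read in at least 1 of the 9 pollen libraries but stayed under 0.01 in all 9. They were also under 0.01 in every endosperm library and every undiluted leaf and root library. Pollen libraries under the depth rule set no limit. These sites serve below as the rarer pollen sites.

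Most of the abundant sites were close to the threshold, and a small number stood near the level of an inherited insertion. Abundance lay from 0.01 to under 0.02 in 1614 pairs (69.1%), from 0.02 to under 0.05 in 509 (21.8%), from 0.05 to under 0.1 in 106 (4.54%), from 0.1 to under 0.5 in 101 (4.32%) and at 0.5 or more in 6 (0.257%). Inherited sites, at 0.1 or more in both the endosperm and the pollen of the plant, had median pollen abundances of 0.659 (plant 107) to 1.05 (plant 76). The abundant new sites had medians of 0.0140 to 0.0179 per plant. The sites were chosen by their pollen abundance and by their low abundance elsewhere, so these values are a description.

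**Figure D1:**
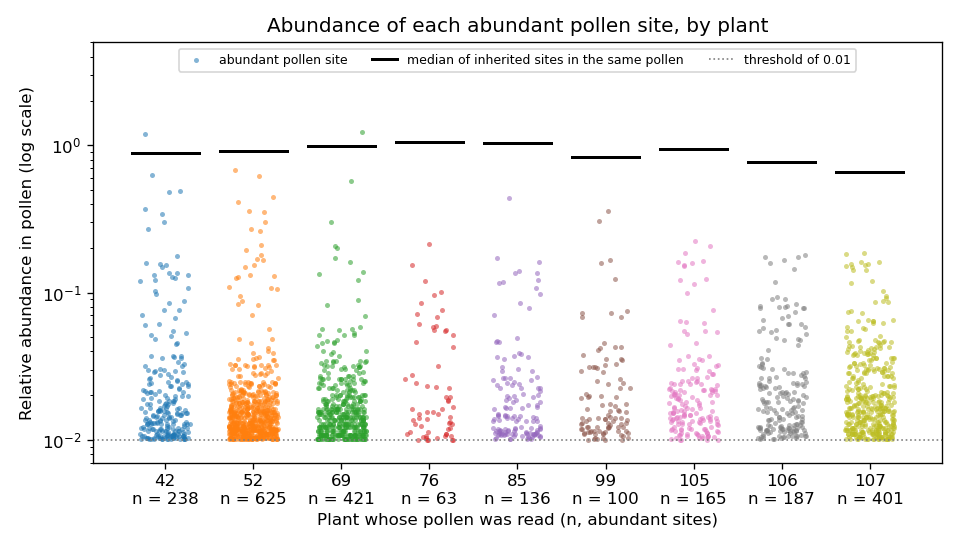
Relative abundance in pollen (log scale) of each abundant new site by plant, with the plant's number of sites under the axis, a bar at the median of its inherited sites and a dotted line at the threshold of 0.01. Plants 42 and 69 each have 1 site above their inherited median, and plants 76, 105, 106 and 107 have none above 0.223.

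The number of abundant sites differed between plants by about an order of magnitude. Plant 52 had 625, plant 69 had 421, plant 107 had 401, plant 42 had 238 and plant 106 had 187. Plant 105 had 165, plant 85 had 136, plant 99 had 100 and plant 76 had 63. The 2 plants with the shallowest pollen libraries, 69 and 107, were among the 3 highest, and the part of depth in this order was not tested. Summed over its abundant sites, pollen abundance was 15.5 in plant 52, between 10.4 and 10.7 in plants 42, 69 and 107, and 2.15 in plant 76. The abundant sites held from 10.1% (plant 76) to 28.1% (plant 69) of the summed abundance of abundant and rarer sites together.

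The number of sites fell steeply as the threshold doubled, with a shallower step in the middle of the range. The numbers at or above 0.01, 0.02, 0.04, 0.08, 0.16, 0.32 and 0.64 were 2336, 722, 267, 132, 50, 16 and 3. The share left by each doubling was 0.309, 0.370, 0.494, 0.379, 0.32 and 0.188. The step from 0.04 to 0.08 thus kept the largest share. In 3 plants more sites lay between 0.08 and 0.16 than between 0.04 and 0.08, a feature picked out after the values were seen. Plant 42 had 17 in the higher interval and 13 in the lower, plant 52 had 13 and 7, and plant 85 had 9 and 6. The other 6 plants had fewer in the higher interval, as in plant 107 with 15 and 38.

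**Figure D2:**
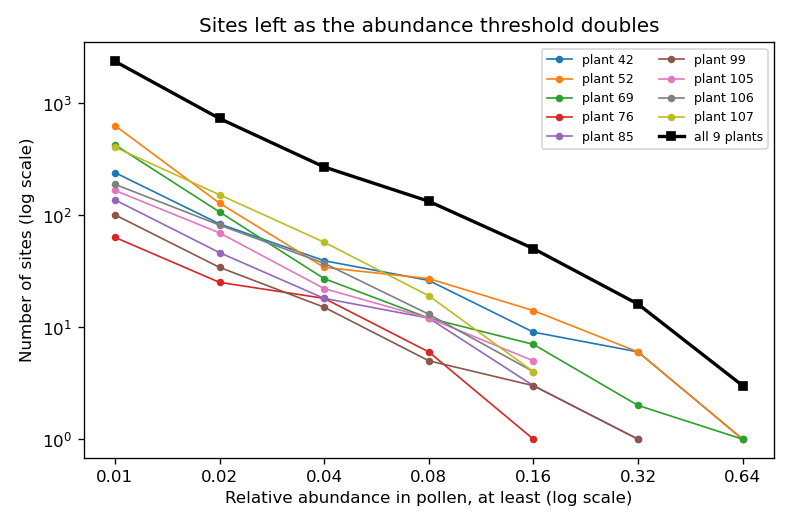
Number of abundant new pollen sites (log scale) at or above each of 7 thresholds of relative abundance (log scale), for each plant and for all 9 together. The combined line falls from 2336 sites at 0.01 to 3 at 0.64 and is shallowest between 0.04 and 0.08, where plants 42, 52 and 85 flatten.

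Sites at 0.1 or more numbered 107, with 23 each in plants 42 and 52, 14 in plant 107, 11 in plant 105, 10 each in plants 69 and 85, 7 in plant 106, 5 in plant 99 and 4 in plant 76. They held 19.5% to 59% of the summed abundance of a plant's abundant sites, with plant 42 the highest and plant 107 the lowest. The most abundant site alone held from 1.74% (plant 107) to 11.6% (plant 69) of it. Within the abundant sites, a few large ones therefore made up much of the summed abundance in some plants and a smaller part in others. Rarer sites, which held most of the summed abundance of abundant and rarer sites together, are not counted in these shares.

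The 2 most abundant sites exceeded the median of inherited sites in the same pollen. At chr7:179533765-179533773 the pollen of plant 69 had 1809 counts, a relative abundance of 1.22 (95% exact Poisson interval 1.17 to 1.28). The same plant had 0 counts there in endosperm and 0 in root, and no library of another plant read the site. At chr5:190793949-190793957 the pollen of plant 42 had 4831 counts and an abundance of 1.18 (interval 1.15 to 1.22), which was 1.34 times its inherited median. Its own endosperm had 0 counts, but 20 libraries of 14 other plants read the exact position, the highest at an abundance of 0.00406. Left and right borders had 1338 and 471 counts at the site of plant 69, and 2348 and 2483 at that of plant 42. The Poisson intervals cover counting error and not such imbalance between borders. By combined count both sites were as large as an inherited insertion in pollen, and both were unread in the kernel's endosperm. They differed in border balance and in whether other plants carried counts at that base position.

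Plant 52 had the third and the fifth largest site, and in neither case did its endosperm or any other plant have a count. The site chr4:11001819-11001827 had 2631 counts and an abundance of 0.681, and chr4:160911135-160911143 had 2389 counts and 0.619. In plant 42, chr6:154196251-154196259 had 2564 counts in pollen (0.629) and 6 in endosperm, and was read in 29 libraries of other plants. Plant 42 also held chr9:147179851-147179859 at 0.488, with 1 endosperm count and 36 libraries of other plants, and chr7:5822627-5822635 at 0.482 with neither. In plant 69 chr5:220670921-220670929 had 843 counts and an abundance of 0.570, with 0 in endosperm and root. Within plant 42, large sites that no other plant carried and large sites read in most other plants thus occurred side by side.

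The leading sites of the other 6 plants were smaller. Plant 85 had 0.439 at chr7:155543485-155543493 (2616 counts) with 2 endosperm counts, and plant 99 had 0.360 at chr8:75499206-75499214 (2369 counts). Plant 105 had 0.223 at chr9:15701371-15701379 (1400 counts), and plant 76 had 0.214 at chr4:239693477-239693485 (981 counts), with 0 in its endosperm and 0 in its leaf. Plant 107 had 0.186 at chr6:168417719-168417727 (495 counts) and plant 106 had 0.181 at chr2:39391249-39391257 (1269 counts). Set against the inherited median, the leading site ran from 0.204 (plant 76) to 1.34 (plant 42).

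Of the 25 most abundant sites, down to 0.214, 9 were in plant 52, 8 in plant 42, 3 in plant 69, 2 in plant 99 and 1 each in plants 76, 85 and 105. Their own endosperm had 0 counts at 21 of them and at most 6 counts at the other 4. Both borders were read at 24, 8 were read in no other plant and 5 were read in 10 or more libraries of other plants. At the bottom of the range, 3 sites of plant 105 had 63 counts and an abundance of 0.01, namely chr2:117056846-117056854, chr4:241873956-241873964 and chr8:176100420-176100428. The nearest sites below the threshold were 3 in plant 106 with 70 counts and an abundance of 0.00997, namely chr1:306122336-306122344, chr2:24886857-24886865 and chr2:8352254-8352262. Counting error alone spans that difference.

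Abundant pollen sites were read in the endosperm of their own plant about as often as the abundant sites of other plants were, with a difference inside the spread between plants. At least 1 endosperm count was found for 395 of 2336 pairs (16.9%), against 14.3% for sites abundant in other plants' pollen, pooled over the same 9 endosperm libraries. These 2 pools weight the libraries differently. With each library weighted by its plant's own sites, the rate of other plants' sites would give 399.6 pairs (17.1%). Per plant, the share of own sites read in the endosperm ran from 1.21% (plant 105) over a median of 12.7% to 22.6% (plant 69). For other plants' sites it ran from 1.53% (plant 105) over a median of 14.9% to 22.7% (plant 69). The ranges overlapped almost completely, and plants 105 and 69 were the lowest and the highest in both.

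The share averaged 13.7% ± 7.62 for own sites and 14.6% ± 6.50 for other plants' sites (SD, n = 9 plants). The difference was -0.850 percentage points (95% interval -3.46 to 1.95) and did not pass the threshold (exact sign-flip permutation test over plants, two-sided, p = 0.504, adjusted p = 0.605). By the rule, own and other sites alike were under 0.01 in every endosperm. Pollen sites shared with the plant's endosperm at a higher level had been left out, so the comparison covers only traces under 0.01. It was above 0 in 2 of 9 plants, with 21.0% of own sites and 14.9% of others' sites read in plant 42, and 22.1% and 20.1% in plant 52. It was lowest in plant 107, with 12.7% of own sites and 18.0% of others' sites.

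**Figure D3:**
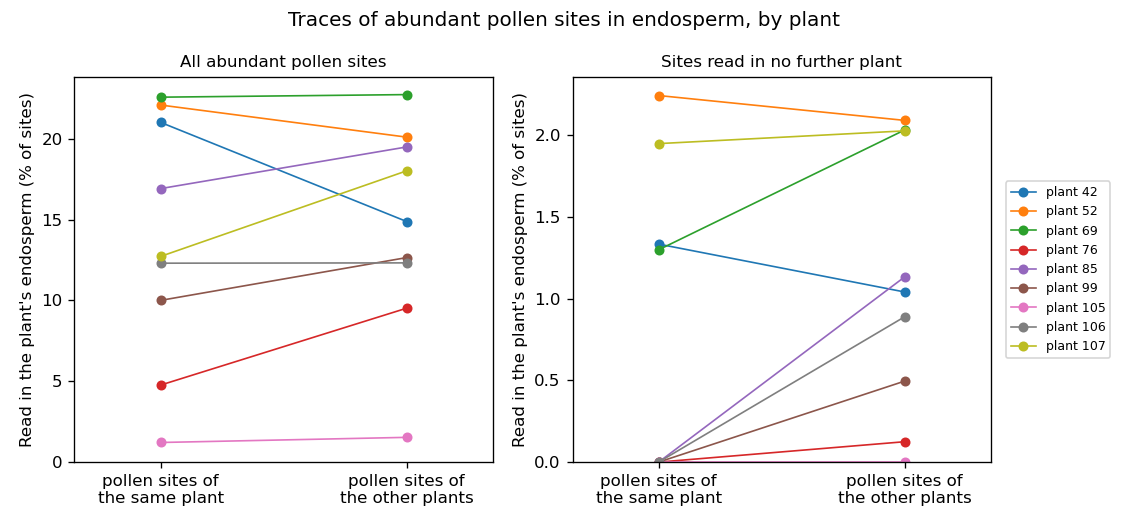
Share of abundant pollen sites (%) with at least 1 count in a plant's endosperm, for sites of the same plant (left in each panel) and of the other plants (right), with 1 line per plant. Over all sites (left panel) the own share is the lower in 7 of 9 plants, and over sites read in no further plant (right panel) own and other shares average 0.758% and 1.09%.

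Endosperm traces of own sites were also set against size in pollen. Between 0.01 and 0.02, 293 of 1614 sites had a trace, where the rate of other plants' sites in the same libraries would give 303.0. Between 0.02 and 0.05 the numbers were 77 of 509 observed and 77.6 at that rate, and between 0.05 and 0.1 they were 11 of 106 and 13.6. Between 0.1 and 0.5 there were 13 of 101, with 11.0 at that rate, and at 0.5 or more 1 of 6, with 2.0. The lowest class had the widest gap in sites, and the top classes held few sites.

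The traces themselves were shallow, within the limit of under 0.01 that the rule sets for every endosperm, so their depth is a description. The highest own trace stood at 0.00945. Among the 395 own traces, 31.1% were 1 count, the median was 3 counts and the median endosperm abundance was 0.000171. Traces of other plants' sites were 1 count in 39.9% of cases, with a median of 2 counts and a median abundance of 0.000155. An abundance of 0.001 or more was reached by 35 own traces (8.86%) and by 7.37% of the others. The pools of own and other traces weight the endosperm libraries differently, and these libraries differ in depth. Their depth values are therefore not set against each other at equal weights. The endosperm of plant 105 was the shallowest, where 3 counts were already 0.00391. Detection took at least 1 count, and 2 of the 165 own sites of plant 105 were read there. A trace at the median abundance would mostly go unread at that depth.

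Leaf and root of the same plant could be examined in 1 plant each, with no test. In the leaf of plant 76, 9 of 63 own sites were read (14.3%, exact binomial interval 6.75% to 25.4%), against 13.8% of other plants' sites and 10.4% of its rarer pollen sites. The deepest were chr2:27653046-27653054 with 4 leaf counts, and chr5:61286791-61286799 and chr5:6563324-6563332 with 2 each. The second of these stood at 0.0757 in pollen. In the root of plant 69, 32 of 421 own sites were read (7.60%, interval 5.26% to 10.6%), against 6.42% of other plants' sites and 4.26% of its rarer sites. The deepest root traces were 152 counts at chr5:132419589-132419597, 38 at chr4:34329712-34329720 and 21 at chr1:193747731-193747739, all of which were also read in the endosperm of plant 69 and in 15 to 34 libraries of other plants. In both tissues the counting interval of the own share held the other plants' share. At a pollen threshold of 0.02, own minus other plants' share was -4.20 percentage points in leaf and -0.965 in root, where it is 0.519 and 1.18 at 0.01.

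Abundant sites were read in their own endosperm somewhat more often than rarer pollen sites were. The shares averaged 13.7% ± 7.62 and 10.5% ± 5.43 (SD, n = 9), a difference of 3.21 percentage points (interval 0.152 to 6.46), with abundant sites higher in 7 of 9 plants. The difference did not pass after adjustment (exact sign-flip permutation test, p = 0.0430, adjusted p = 0.125). Pooled over plants, 9.45% of rarer sites had an endosperm count. Against rarer sites of at least 5 pollen counts the difference was -0.792, and without plant 76 it was 3.76 with an adjusted p of 0.0469.

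The share of abundant sites with a trace in their own endosperm rose with the number of other plants' libraries that read the exact position. Rarer sites were not split in this way, so the rise cannot be called particular to abundant sites. Among sites read in no other plant, the share averaged 0.758% for abundant and 0.986% for rarer sites (n = 9 plants). Each site was looked up in the 43 or 44 undiluted libraries of other plants. No such library read 828 of the 2336 (35.4%), 1 or 2 libraries read 499 (21.4%), 3 to 9 read 513 (22%) and 10 or more read 496 (21.2%). A count in the own endosperm was found for 1.33% of the first class (11 sites, exact binomial interval 0.665% to 2.36%), 5.81% of the second, 15.8% of the third and 55.2% of the last (274 sites, interval 50.7% to 59.7%). Sites of one plant share its libraries, so these intervals cover counting error only, and no test is attached.

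**Figure D4:**
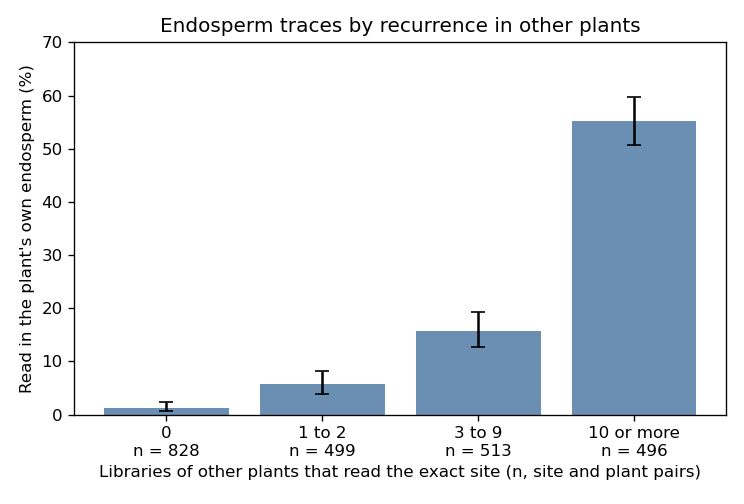
Share of abundant pollen sites (%) read in the endosperm of their own plant, by the number of other plants' libraries that read the exact site, with 95% exact binomial intervals as error bars. The bars stand at 1.33%, 5.81%, 15.8% and 55.2% for 828, 499, 513 and 496 pairs.

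Recurrence in other plants was found at all sizes. Sites at 0.1 or more fell into the 4 classes as 40, 24, 26 and 17. Median pollen abundance was 0.0150 for sites read in no other plant and 0.0146 for those read in 10 or more libraries. The most widely read site, chr4:232384305-232384313, had counts in 39 libraries of other plants and stood at 0.0152 in the pollen of plant 42 and 0.0101 in that of plant 52.

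Any count in another plant was found for 64.6% of abundant pairs, against 59% of rarer ones. Per plant the shares averaged 63.9% ± 6.68 and 59.4% ± 1.26 (SD, n = 9), a difference of 4.45 percentage points (interval -1.47 to 9.42) that did not pass the threshold (exact sign-flip permutation test, p = 0.102, adjusted p = 0.152). Abundant sites were higher in 8 of 9 plants. In plant 76 they were lower, at 49.2% of abundant sites and 60.7% of rarer ones. Without plant 76 the difference was 6.45 (adjusted p = 0.0469), but against rarer sites of at least 3 counts it was 0.185 (adjusted p = 0.941) and against those of at least 5 counts -0.973 (adjusted p = 0.863).

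In a comparison added after the data were seen, sites with counts in any plant other than the pair compared were left out. Own sites were then read in 0.758% ± 0.943 of cases and other plants' sites in 1.09% ± 0.812 (SD, n = 9), a difference of -0.334 percentage points (interval -0.720 to 0.0761, exact sign-flip permutation test, p = 0.0938, adjusted p = 0.188). The own share was 0% in 5 plants, 76, 85, 99, 105 and 106, where 32 to 57 sites each were looked at and a count of 0 allows a share of up to 5.26% to 9.38%.

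Of the 11 own traces at sites that no other plant carried, 4 stood at 0.001 or more and 2 were 1 count. Among all 395 own traces, 8.86% reached 0.001 and 31.1% were 1 count. The 3 deepest of all own endosperm traces were among the 11, and no test was made on so few sites. In plant 107 chr9:112101358-112101366 had 44 pollen counts (0.0166) and 82 endosperm counts (0.00945), with 49 and 33 counts at its left and right borders in endosperm. In plant 52 chr4:205227393-205227401 had 92 pollen and 274 endosperm counts, and chr7:166828817-166828825 had 96 and 233. At both of these every count in both tissues came from the right border. Endosperm abundance was 0.00937 and 0.00797 there, just under the 0.01 that the rule allowed. The only other private trace above 0.001 was chr1:47780453-47780461 in plant 107, with 51 pollen counts and 10 endosperm counts. In plant 76, 1 of 32 sites that no other plant carried was read in leaf, and in plant 69, 1 of 154 was read in root.

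Abundant sites of different plants were compared by exact position. The rule called 0.558% of 415952 eligible sites in any pollen, and the overlap that random positions would give was not computed. Of the 2322 sites, 2309 passed in 1 pollen library, 12 in 2 and 1 in 3. The last, chr1:193747731-193747739, stood at 0.0223 in plant 69, 0.0196 in plant 99 and 0.0124 in plant 52. Its endosperm counts were 33, 1 and 28 in these plants in the same order, and 34 or 35 libraries of other plants read it. At chr7:163765792-163765800 abundance was 0.0865 in plant 107 and 0.0189 in plant 69, and at chr6:108969498-108969506 it was 0.0212 in plant 52 and 0.0162 in plant 69. The site chr2:217102241-217102249 stood at 0.0135 in plant 42 and 0.0129 in plant 52. At chr1:1465152-1465160, read only at its right border in both pollens, abundance was 0.0212 in plant 52 and 0.0149 in plant 69. The combined count there is 2 times the border count. From the border sums over the same reference levels, abundance would be 0.0106 in plant 52 and 0.00744 in plant 69, the latter under the threshold. Each of these 5 sites was read in 28 libraries of other plants or more.

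Both borders of the element were read at nearly all abundant sites. The combined count that chose the sites is made of the border counts, so the border values are a description with no test, apart from the balance between borders. Both borders had at least 1 count in 2253 of 2336 pairs (96.4%), with 88.9% (plant 76) to 98.4% (plant 106) per plant, against 319 of 387 inherited sites in the same pollens (82.4%). Scaled to each border's own reference level, they lay within 2-fold of each other in 77.6%. Taken alone, the left border reached 0.01 of that level in 2069 pairs and the right border also in 2069, and both did in 1802 (77.1%). The standard deviation of the log2 ratio of left to right border, over pairs with both read, was 0.717 to 1.03 in 8 plants and 1.45 in plant 69, whose pollen library was the shallowest.

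**Figure D5:**
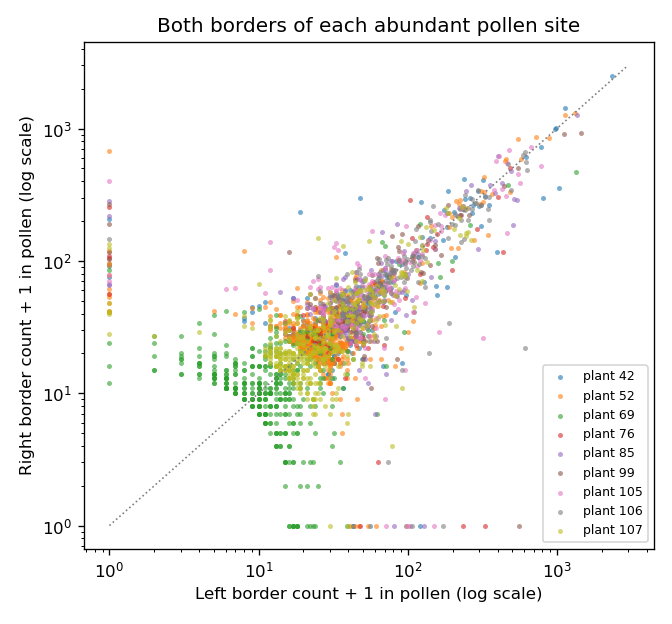
Right against left border count plus 1 in pollen (both log scales) for each abundant new site, coloured by plant, with a dotted line of equality. Both borders were read in 2253 of 2336 pairs, and the 83 pairs with 1 border at 0 lie on the axes' lowest values.

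The median share of counts at the left border averaged 50.2% ± 0.50 over abundant sites and 48.3% ± 2.27 over inherited sites of the same pollen (SD, n = 9). The difference of 1.88 percentage points (interval -0.0837 to 3.83) did not pass the threshold (exact sign-flip permutation test, p = 0.0625, adjusted p = 0.125). The span from border to border was 9 bp at 2325 pairs and another length at 11. At 163 sites of the table the combined count was not the sum of the borders but a doubled count of 1 border, and 5 abundant pairs were of this kind. The largest, chr10:147977816-147977821 in plant 52, had a span of 6 bp, 681 counts at the right border and 0 at the left, and a combined count of 1362. Its abundance of 0.353 would be 0.176 from the border sum over the same reference level. Of the 28 reference sites 11 were of this kind. Reference levels from border sums were 0.778 to 0.909 of the combined ones in the 9 pollen libraries, which would raise such values. With border sums throughout, the number of abundant sites was 3084.

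Abundant sites lay along the chromosomes much as rarer pollen sites did. Chromosome 1 held 16.9% of abundant and 16.4% of rarer sites, chromosome 6 held 7.24% and 8.25%, and chromosome 8 held 7.62% and 8.40%. On a scale from 0 at a chromosome end to 1 at its middle, the median position averaged 0.289 ± 0.0393 for abundant and 0.292 ± 0.00158 for rarer sites (SD, n = 9). The difference was -0.00327 (interval -0.0358 to 0.0302, exact sign-flip permutation test, p = 0.793, adjusted p = 0.793), with the abundant sites higher in 5 of 9 plants. Transposition to nearby positions is known for some maize elements, so distance to the nearest inherited site was also taken. Its median per plant was 9.25 to 40 Mb for abundant and 9.18 to 33.6 Mb for rarer sites, and 3.51% to 11.2% of abundant against 3.47% to 9.50% of rarer sites lay within 1 Mb.

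Abundant sites had more insertion sites of other plants nearby than rarer sites had. Within 500 bp either side, the exact site left out, the median number was 51.6 ± 2.69 for abundant and 47.4 ± 1.13 for rarer sites (SD, n = 9). The difference of 4.11 sites (interval 2.17 to 6.13) passed the threshold (exact sign-flip permutation test, p = 0.00781, adjusted p = 0.0469), and 8 of 9 plants shared the direction. Plant 85 had 46 near abundant and 47 near rarer sites. The call depended on the rarer sites chosen: against those of at least 3 counts the difference was 1.78 (adjusted p = 0.211), and against those of at least 5 counts 0.667 (adjusted p = 0.756). It was also lost on leaving out 7 of the 9 plants in turn, where the difference stayed between 3.75 and 4.75 over all 9 and the adjusted p was at most 0.0938.

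Small groups of abundant sites from different plants lay close together. Rarer sites also had many neighbours, with a median of 47.4 sites of other plants within 500 bp. How many such groups an equal number of rarer sites would form was not computed. The densest group was 5 sites of plants 69, 105 and 107 between positions 985225 and 985936 of chromosome 3, at abundances of 0.0143 to 0.0582. Plants 52, 85 and 106 each had 1 site between positions 57154407 and 57154601 of chromosome 1, at 0.0192 to 0.0372. The genes at these positions were not analysed here.

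The same rule turned to the other tissues gives a scale for pollen, with no test, since the other tissues' caps differ and plants are shared only in part. Of the pollen plants, only plant 76 was among the leaf plants and only plant 69 among the root plants. Plants 42 and 52, of family ND67, had neither tissue. Between pollen and leaf or root, tissue and plant therefore cannot be told apart. Sites abundant in pollen alone numbered 63 to 625 per plant with a median of 187 (n = 9). Endosperm had 5 to 129 with a median of 27 (n = 16, the 2 MuKiller-labelled ones included), leaf 37 to 108 with a median of 72 (n = 6), and root 63 to 153 with a median of 89.5 (n = 6). The median summed abundance was 5.66 in pollen, 0.542 in endosperm, 1.63 in leaf and 2.58 in root. Sites at 0.1 or more were 4 to 23 per plant in pollen, 0 to 2 in endosperm, 0 to 2 in leaf and 2 to 10 in root. As a share of the abundant sites of the tissue they were 4.58% in pollen, 1.54% in endosperm, 0.932% in leaf and 5.03% in root. Pollen thus had the largest sums, and root had a like share of large sites.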

How the data were processed

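MuSeq2 libraries of 56 columns were analysed from the deposited tables of counts per insertion site, 1 for both borders together and 1 for each border. The counts are whole numbers that the authors deposited without normalization. Reads were aligned with Bowtie2, per the submitters' processing notes. The version, the genome build, the caller of insertions and the treatment of any molecular identifiers were not given in the sources used here, and gene context was not analysed here. Reads made by PCR may repeat the same molecule, and intervals and the floor of 3 counts cover counting error only.

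Abundance, inherited sites and size classes were computed as defined in the text. The sites and tests were chosen with earlier results of these data known. Plants were the replicates, each with both values from the same library, and p-values measure only the spread between these plants. Of 10 planned tests, 4 had 1 plant and no p. The other 6 used exact two-sided sign-flip permutation tests over 9 plants (smallest p 0.00391), adjusted by Benjamini-Hochberg over the 6 with a threshold of 0.05. The intervals of differences at 95% invert that test. The procedure was tested on simulated data. Plant pairing comes from the labels, which name the plant.

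Named sites were the 25 most abundant, the first of each plant, the 3 deepest traces in each tissue, the 3 read most widely, up to 5 that passed in several pollens, and 3 on each side of the threshold. Of the 11 private traces and the clusters of neighbouring sites, those named were chosen after their values were seen. The software was Python 3.11.15, scipy 1.17.1, numpy 2.4.6, pandas 2.3.3 and, for plots, matplotlib 3.10.9.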

Additional observations from a re-analysis of the deposited data

Results flagged for a closer look

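In 15 sets of 9 plant values searched for a value far from the rest, 3 were found, where chance gives about 1 in 20. In plant 76 abundant sites were read in other plants less often than rarer sites, by -11.5 percentage points, while the other 8 plants reached up to 13.8. Plant 76 also had the lowest share of sites with both borders read, 88.9%, and the fewest abundant sites. In plant 69 the standard deviation of the log2 border ratio was 1.45, with the next at 1.03. Its pollen library was the shallowest.

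The sign of the endosperm difference went with the family label. Own minus other plants' share averaged 4.06 percentage points in family ND67 (plants 42 and 52, both above 0) and -2.25 in family ND58 (7 plants, all below 0). The split was noticed from these signs, so a test of the family labels on the same 9 values adds nothing, no p is given, and the difference is not shown. The description of pollen 69 names family ND67, and its difference was among those below 0.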

How the results depend on the processing

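Differences are abundant minus rarer or inherited sites, or own minus other plants. The number of abundant sites was 722 at a threshold of 0.02 and 1808 to 3084 under the other settings. The neighbour call was lost at a threshold of 0.02 (2.83), with a reference level of 2000 or more (4), without the pollen of plants 69 and 99 (3.64), within 5000 bp (2.83), and against rarer sites of at least 3 (1.78) or 5 counts (0.667). Leaving out each plant gave 3.75 to 4.75. In the same leave-one-out runs the distance to chromosome ends spanned -0.0105 to 0.00294, turning in 3, the exact-site difference 3.28 to 6.45 and the endosperm difference to rarer sites 2.23 to 3.76, both passing without plant 76. Own minus other plants stayed from -1.72 to -0.294. Against rarer sites of at least 5 counts the exact-site difference turned to -0.973 (0.185 at 3 counts) and the endosperm difference to -0.792. In the root of plant 69 the difference to rarer sites moved to 0.458 at a threshold of 0.02, and own minus other plants turned to -0.965 there and to -0.122 with library totals. In the leaf of plant 76 own minus other plants turned to -4.20 at that threshold, -1.22 with at least 2 counts and -2.04 with at least 5, and the difference to rarer sites to -2.39 at that threshold, -0.192 against rarer sites of at least 5 counts and -0.855 with at least 5 counts for detection. Further alternatives were added after seeing the data. Among sites read in no further plant, the endosperm difference to rarer sites turned to -0.228 and the root difference was 0.369. With at least 5 counts for detection, own minus other plants turned to 0.397 (adjusted p = 0.577) and the exact-site difference passed at 6.49 (adjusted p = 0.0234). Over all pollen libraries the left border difference passed at 3.04 (adjusted p = 0.0378). The cause of these changes was not tested. With no replicate block, that is without pairing by plant, the neighbour difference of 4.11 had an adjusted p of 0.00839, and no call changed. Depth limits traces in the endosperm of plant 105 and any test in leaf and root.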

Other observations

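The 5 pollen plants under the depth rule also had sites that met the abundance conditions, though 10 counts stood at 0.0143 to 0.145 there. Pollen 74 had 82 such sites, pollen 75 had 53, pollen 78 had 57 and pollen 83 had 17. The 2 libraries of pollen 79 had 12 and 3. In pollen 79, 12 sites reached 10 counts in one or the other library. All 12 were read in both, and 10 of them lay within 2-fold. With all pollen included, a choice made after seeing the data, 6 plants had leaf, 1 of them (plant 74) with a MuKiller-labelled endosperm. Their own sites were read in leaf in 21.3% ± 10.7 of cases and other plants' sites in 21.5% ± 5.31 (SD, n = 6), a difference of -0.189 percentage points (interval -15.6 to 16.0, exact sign-flip permutation test, p = 1). In root, with 3 plants, the shares were 3.35% and 3.13%, where the smallest possible p is 0.25.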
